A study of Mus musculus with 41 samples.

Results

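Replication-dependent histone genes encode the bulk H2A, H2B, H3, H4 and linker H1 proteins that package newly copied DNA. They were taken here as the genes whose older mouse symbol begins with Hist1h, Hist2h, Hist3h or Hist4h and that had a count above 0 in at least 8 of 31 RNA-seq libraries. Of the 51410 genes in the count tables, 9 carried such a symbol and 3 met the detection minimum: Hist1h2al, Hist1h2bp and Hist1h4n. A reference of mouse gene names holds 70 symbols of this form, and the other 61 were not analysed here, so these values describe a small corner of the family. By gene type and position alone, the label holds for 2 of the 3 kept genes. Hist1h2bp (an H2B gene) and Hist1h4n (an H4 gene) are protein-coding genes of the histone cluster on chromosome 13. RefSeq lists Hist1h2al as H2af-ps2, a transcribed pseudogene that lies on the same chromosome well outside that cluster.

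In dividing cells these genes are transcribed mainly in S phase, under the coactivator NPAT. Their mRNAs end in a stem-loop bound by SLBP in place of a poly(A) tail, and they are degraded quickly when DNA synthesis stops. Most have no introns and sit in dense clusters with near-identical copies. Embryonic stem cells (ESCs) divide rapidly and spend much of their cycle in S phase. RNA libraries that select poly(A) tails hold these transcripts poorly, and the submitters describe a stranded mRNA-seq kit; how far this set the counts below was not tested.

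The libraries came from the mouse ESC line R1 (wild type, WT) and from Caprin1 knockout (KO) clones 2 and 4, each a single clone. All groups had spent 4 days in 1 µM retinoic acid without LIF, and were collected after 0, 2, 4 or 8 h in 2 µg/ml of α-amanitin, a toxin that blocks RNA polymerase II. Each time held 4 WT libraries and, for KO, 4 libraries (2 per clone), except 0 h, where KO had 3 (2 of clone 2, 1 of clone 4). CAPRIN1 is a cytoplasmic RNA-binding protein, and the design asks how RNA levels and their course after the drug differ without it. The labels do not say that replicates were separate cultures, so p-values measure the spread between these samples, which may be technical.

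Several properties of the series bear on every value here. Library totals ranged from 3.46 to 31.6 mega-counts (M), with 18.7 ± 8.74 M at 0 h (SD, n = 7) and 7.16 ± 0.658 M at 2 h (SD, n = 8). Each time is a table of its own, so the time in the drug and the table cannot be told apart. Caprin1 itself stood at 766 to 1161 CPM in WT, 106 to 196 in clone 2 and 991 to 1225 in the libraries labelled clone 4 knockout, so at the transcript level the label was borne out for clone 2 alone. Below, clone 4 means the libraries labelled so, and KO values that pool the clones include them. All 14 pluripotency markers averaged at least 1 CPM, and their summed level was 888 to 1100 CPM in WT, 1400 to 1650 in clone 2 and 992 to 1440 in clone 4. The summed level of 19 endoderm markers, all at a mean of at least 1 CPM, was 19400 to 23600 CPM in WT, 73800 to 85700 in clone 2 and 28200 to 38400 in clone 4. For 18 feeder fibroblast markers, 17 of them at that mean, the sums were 1750 to 2510, 1020 to 1380 and 5090 to 5670 CPM. Such sums follow abundant markers such as Acta2 and Col3a1 (log2 differences from WT of -1.84 and -2.84 in clone 2). Marker by marker over the 4 times, 11 of the 18 were higher and 6 lower in clone 2. In clone 4, 15 were higher and 2 lower. Of the 14 pluripotency markers, 8 were higher and 4 lower in clone 2, with Klf4 at 1.52 and Utf1 at -0.86. Clone 4 had 8 of them higher and 0 lower. These calls used a false discovery rate under 0.05, which 73.6% and 57.9% of all genes passed. The part of these levels in the histone comparisons was not tested. In bulk RNA, fewer cells in S phase and less histone RNA per cell cannot be told apart.

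Except for the pseudogene, the genes lie in 1 stretch of the cluster, and its sequence shows which of them resemble each other. In RefSeq's GRCm38.p6 annotation, Hist1h2an (chr13:21786774-21787248) and Hist1h2bp (chr13:21787483-21801561) are neighbours that start back to back. Hist1h2bq (chr13:21806412-21810199) and Hist1h2ao (chr13:21810367-21810918) form a second pair of this kind, followed by Hist1h4m (chr13:21811746-21812150). The same 3 kinds recur in Hist1h4n (chr13:21831792-21832197), Hist1h2ap (chr13:21833024-21833475) and Hist1h2br (chr13:21833743-21837530). The symbol Hist1h2ap is an older name in 2 RefSeq entries, and the one that is not Hist1h2ao was taken. The pseudogene Hist1h2al spans chr13:51200084-51203066.

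RefSeq promoter windows (250 bases before to 50 after a start, 300 in all, GRCm38.p6) were matched for 8 of the 9 genes. Those of Hist1h2bq and Hist1h2br share all 300 bases, those of Hist1h4m and Hist1h4n share a run of 285, and those of Hist1h2ao and Hist1h2ap a run of 200. The window of Hist1h2bp overlaps that of its neighbour Hist1h2an by 261 bases on the opposite strand. Against the 62 other histone windows compared in its own direction, its longest shared run was 15 bases. The stretches below show the intergenic DNA upstream of the 2 kept protein-coding genes and of the copies they resemble or differ from. Capitals mark CCAAT or its reverse complement ATTGG, the binding motif of the factor NF-Y, and TATAA or its reverse complement TTATA, the core of a TATA box.
Hist1h2bp (chr13:21787249-21787482, plus strand, the whole gap to Hist1h2an): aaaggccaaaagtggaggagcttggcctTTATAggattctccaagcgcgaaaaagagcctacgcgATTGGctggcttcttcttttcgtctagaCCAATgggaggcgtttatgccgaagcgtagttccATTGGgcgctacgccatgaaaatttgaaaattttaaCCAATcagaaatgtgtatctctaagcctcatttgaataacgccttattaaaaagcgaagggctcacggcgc
Hist1h4n (chr13:21832198-21832317, minus strand): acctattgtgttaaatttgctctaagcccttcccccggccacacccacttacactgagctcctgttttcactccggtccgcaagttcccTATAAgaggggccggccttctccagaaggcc
Hist1h4m (chr13:21811626-21811745, plus strand): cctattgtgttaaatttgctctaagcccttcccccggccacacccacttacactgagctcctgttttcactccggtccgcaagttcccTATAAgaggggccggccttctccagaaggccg
Hist1h2bq (chr13:21810200-21810366, minus strand) and Hist1h2br (chr13:21833576-21833742, plus strand), the same letters in both: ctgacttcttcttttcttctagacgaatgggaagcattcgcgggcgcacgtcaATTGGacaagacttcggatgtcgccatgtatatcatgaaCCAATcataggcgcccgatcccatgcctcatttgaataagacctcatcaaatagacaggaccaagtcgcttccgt

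Counted over the full 250 bases before the start, longer than the stretches printed, and on both strands, the shared Hist1h2an and Hist1h2bp promoter held 4 CCAAT and 1 TATAA motif. Hist1h2bq and Hist1h2br each held 3 and 1, Hist1h2ap 3 and 1, and Hist1h2ao 2 CCAAT and no TATAA motif. The H4 promoters of Hist1h4m and Hist1h4n each held 2 TATAA and no CCAAT motif. Among 63 histone promoters of this symbol form in RefSeq, 52 (82.5%) held CCAAT and 41 (65.1%) TATAA, against 33.8% and 22.8% of all 32851 promoters of that length. The octamer ATTTGCAT, the motif of OCT1 and known from H2B promoters, was in 14 of the 63 (22.2%) and in 1.6% of all promoters. None of the 8 matched windows held it in exactly these letters. A match describes these letters only.

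The 9 genes gave few counts. Over all 31 libraries Hist1h2al (ENSMUSG00000091383.2) had 234 counts, Hist1h2bp (ENSMUSG00000069308.7) 130 and Hist1h4n (ENSMUSG00000069305.3) 15. Just outside the minimum, Hist1h2an had 9 counts in 6 libraries, against 9 libraries for Hist1h4n just inside it, and Hist1h2ao had 2 counts in 2 libraries. Hist1h2ap, Hist1h2bq, Hist1h2br and Hist1h4m were at 0 in every library. A total of 0 allows up to 3 counts over all libraries, by counting error alone. All 4 genes at 0 belong to the pairs above whose promoter windows share a run of 200, 285 or 300 bases. How the authors' counting treated reads that match 2 copies is not given in the sources used here, and its part in these values was not tested. Within the H4 pair, Hist1h4n held all 15 counts and Hist1h4m none. The H2B pair Hist1h2bq and Hist1h2br had no counts in either copy, while the H2B gene Hist1h2bp was counted in all 31 libraries. Transcript sequences were not compared, so the promoter windows cannot show which of these genes share reads.

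**Figure D1:**
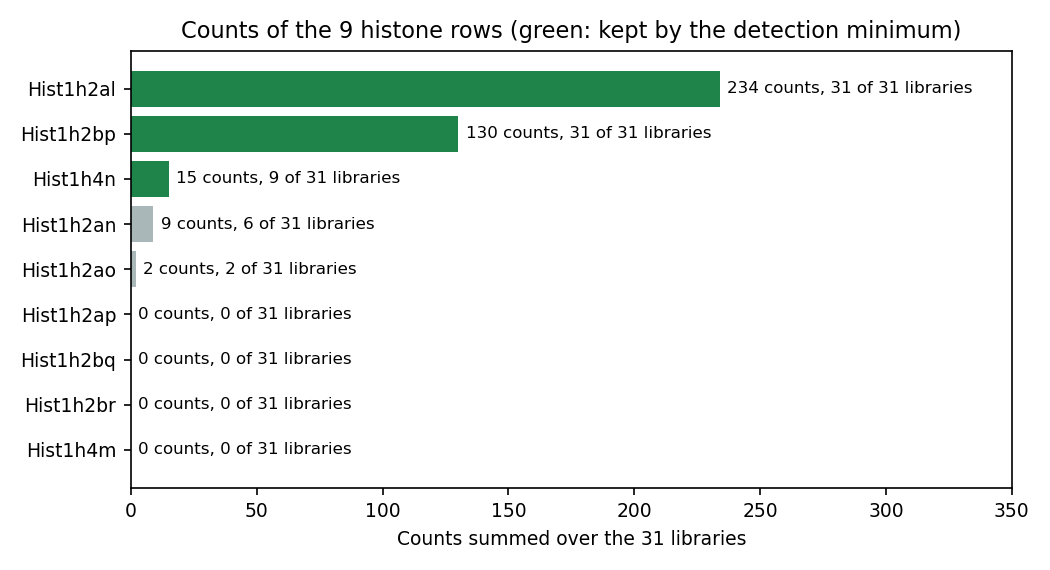
Counts summed over the 31 libraries (horizontal axis) for each of the 9 histone genes (vertical axis), with the number of libraries in which each was counted. Hist1h2al (234 counts) and Hist1h2bp (130) are in all 31 libraries, Hist1h4n (15) is in 9, and 4 genes are at 0.

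Levels are given as counts per mega-count of the library, scaled between libraries by edgeR's TMM factors (CPM), and for comparison between genes per kilobase of the deposited gene length (RPKM). Such a level is a share of the RNA in a library, and amounts per cell were not measured. Between times in a drug that blocks transcription, "rose", "higher", "fell" and "lower" therefore mean a changed share of the remaining RNA. Per length, the pseudogene Hist1h2al stood highest, at 2.24 ± 1.63 RPKM (SD, n = 31), at the 77.3 percentile of all genes with a count. Hist1h2bp had 0.417 ± 0.225 RPKM (SD, n = 31), at the 61.9 percentile, over a deposited length of 1087 bases. RefSeq's span for this gene (chr13:21787483-21801561) is far longer than that length. Whether its counts came from a short histone mRNA or from a longer transcript was not tested. Hist1h4n had 0.0870 ± 0.155 RPKM (SD, n = 31), at the 44.4 percentile. The order of these 3 levels is a description, and the SDs are spreads over libraries of all lines and times, not errors of the means. Hist1h2bp was counted in all 31 libraries and Hist1h4n in 9. For every gene 1 count is a large step: single libraries held 1 to 24 counts of Hist1h2al, 1 to 10 of Hist1h2bp and 0 to 3 of Hist1h4n. Spread between replicates of a group was close to what counting alone gives, with a chi-square per degree of freedom of 1.21 for Hist1h2al and 0.585 for Hist1h2bp (19 degrees of freedom each) and 0.943 for Hist1h4n (10).

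After 2 h of α-amanitin the Hist1h2al level in WT was higher than at 0 h, and at 4 h it was lower again. The WT libraries stood at 0.474, 0.704, 0.766 and 0.542 CPM at 0 h (0.621 ± 0.136, SD, n = 4) and at 1.49, 2.66, 0.924 and 1.11 CPM at 2 h (1.55 ± 0.782, SD, n = 4). All 4 libraries at 2 h lay above all 4 at 0 h. The share of all genes with such a gap between libraries was not computed, here or for the gaps described below. Pooled over libraries, this was 1.56 CPM at 2 h (exact Poisson 95% interval 1.13 to 2.10, counting error only) against 0.681 at 0 h (0.497 to 0.911). The log2 difference was 1.19 (SE 0.356), with an edgeR quasi-likelihood false discovery rate (FDR, Benjamini-Hochberg over all genes) of 0.0107. By this test 27.7% of all genes tested passed in either direction. The call rested on 1 library: without WT replicate 2 at 2 h, the value was 0.79 at an FDR of 0.156. The mean of the changes over 2 h in the clones minus that in WT was -0.20 (SE 0.553, FDR 0.942), in a test added after these values were seen, in which 0.972% of all genes passed.

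At 4 h the 4 WT libraries held 0.633, 0.279, 0.496 and 0.53 CPM of Hist1h2al (0.484 ± 0.149, SD, n = 4), all below those at 2 h. The log2 difference between 4 and 0 h was -0.38 (SE 0.460, FDR 0.509). Between 4 and 2 h, also added after the values were seen, it was -1.57 (SE 0.445, FDR 0.00961) in WT, -2.75 (SE 0.703, FDR 0.00564) in clone 4 and -1.21 (SE 0.781, FDR 0.315) in clone 2. In these 3 tests, 20.6%, 15.6% and 18.8% of all genes passed in either direction. The gene entered them only through libraries at 2 h, the higher group. Without the filter the values were -1.57 in WT (SE 0.443, FDR 0.00797) and -2.74 in clone 4 (SE 0.700, FDR 0.00298), with 8.16% and 6.21% of all genes passing. Since these comparisons were chosen for the levels seen, they are descriptions and were not repeated with libraries left out. At 8 h the WT libraries spread from 0.133 to 1.13 CPM (0.734 ± 0.486, SD, n = 4), overlapping every other time, and the log2 difference from 0 h was 0.12 (SE 0.407, FDR 0.821).

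In the clones, Hist1h2al stood at 0.783 and 0.65 CPM at 0 h and 0.767 and 0.812 CPM at 2 h in clone 2. In clone 4 it stood at 0.458 CPM in the lone library at 0 h and at 1.89 and 1.51 CPM at 2 h. At 2 h both clone 4 libraries thus lay within the WT range and both clone 2 libraries below it. The log2 change over 2 h was 1.87 in clone 4 (SE 0.605, FDR 0.0570) and 0.11 in clone 2 (SE 0.539, FDR 0.942), neither passing, and the clones were not compared with each other. These 2 tests were added after the values were seen, and 6.32% and 11.8% of all genes passed in them. Over all lines, 7 of the 8 libraries at 2 h lay above all 7 at 0 h, and all 8 above all 8 at 4 h. At 4 h clone 2 held 0.128 and 0.557 CPM and clone 4 0.205 and 0.297 CPM, and at 8 h they held 0.355 and 1.00 CPM and 0.317 and 0.229 CPM.

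Hist1h2bp encodes the core histone H2B, the partner of H2A in the nucleosome. Its WT libraries held 0.474, 0.414, 0.282 and 0.155 CPM at 0 h (0.331 ± 0.142, SD, n = 4) and 1.34, 0.561, 0.77 and 0.276 CPM at 2 h (0.738 ± 0.452, SD, n = 4). Of the libraries at 2 h, 3 of 4 lay above all those at 0 h and the last lay among them. The log2 difference of 1.17 (SE 0.425) passed at an FDR of 0.0372. It did not pass with DESeq2 (1.23, FDR 0.132), with library totals (1.06, FDR 0.0526) or with the replicate block (1.12, FDR 0.0518). Without the filter on low counts it did not pass either (1.12, FDR 0.168). The gene passed the filter on low counts through WT replicate 1 at 2 h alone, and without that library it was not tested. Leaving out WT replicate 3 at 0 h (1.08, FDR 0.0842), WT replicate 4 at 0 h (1.00, FDR 0.0848) or WT replicate 3 at 2 h (1.14, FDR 0.0781) also ended the call.

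Later WT libraries held 0.506, 0.279, 0.496 and 0.53 CPM of Hist1h2bp at 4 h and 0.533, 0.628, 0.251 and 0.544 CPM at 8 h. The log2 differences from 0 h were 0.59 (SE 0.464, FDR 0.318) and 0.61 (SE 0.446, FDR 0.277), and neither passed. In clone 2 the level was 0.196 and 0.163 CPM at 0 h, 0.384 and 0.676 at 2 h, 0.256 and 0.139 at 4 h, and 0.473 and 0.401 at 8 h. In clone 4 it was 0.305 CPM at 0 h, 0.436 and 0.303 at 2 h, 0.307 and 0.446 at 4 h, and 0.739 and 0.8 at 8 h. Both libraries of each clone thus lay above that clone's 0 h values at 8 h. The log2 change over 8 h was 1.20 in clone 2 (SE 0.646, FDR 0.186) and 1.30 in clone 4 (SE 0.634, FDR 0.154), and it did not pass in either. The change over 8 h in the clones minus that in WT was 0.64 (SE 0.629, FDR 0.573) for Hist1h2bp and -0.50 (SE 0.638, FDR 0.661) for Hist1h2al.

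**Figure D2:**
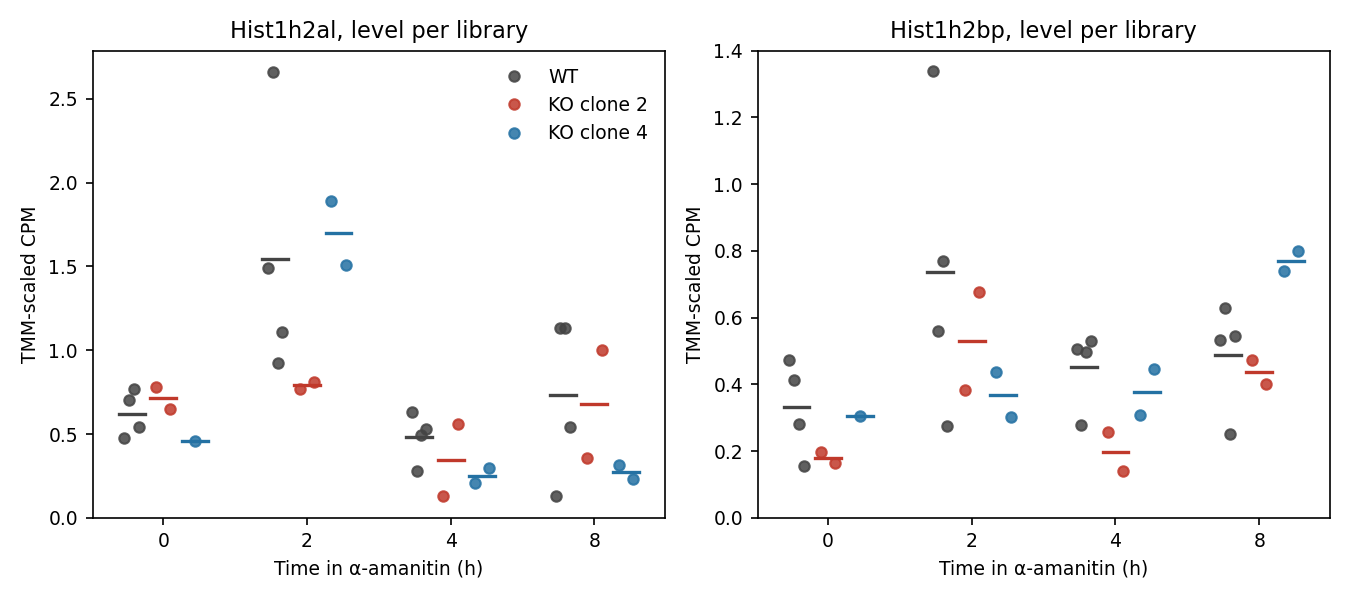
TMM-scaled CPM (vertical axis) of Hist1h2al (left) and Hist1h2bp (right) by hours in α-amanitin (horizontal axis), with 1 point per library and a bar at each group's mean, for WT (grey), clone 2 (red) and clone 4 (blue). The WT points for Hist1h2al at 2 h (0.924 to 2.66) lie above those at 0 h (0.474 to 0.766).

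Both tested genes passed in WT at 2 h against 0 h, where 27.7% of all 15850 genes tested passed in either direction and 14.1% upward. This count supports nothing about the family, because Hist1h2al had reached the filter's cutoff of 1.23 CPM in 4 libraries, all at 2 h, and Hist1h2bp in 1. Without the filter, Hist1h2al still passed (log2 difference 1.14, SE 0.354, FDR 0.0142) and Hist1h2bp did not (1.12, FDR 0.168), with 4.72% of all genes passing upward. In the WT comparisons of 4 h and 8 h with 0 h, where 52.2% and 51.1% of all genes passed, edgeR called 0 of the 2 tested genes, 0 had an unadjusted p under 0.05, and DESeq2 called 0. Over 8 h in clone 2 and clone 4 (28.4% and 19.5% of all genes), edgeR and DESeq2 also called 0 of 2, and only Hist1h2bp in clone 4 had an unadjusted p under 0.05. In the difference between genotypes over 8 h, which 8.01% of all genes passed, both tools called 0 of 2, with 0 under that p.

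The H4 gene Hist1h4n was too sparse for a test after the filter. At 0 h it had 9 counts, 3 each in WT replicate 3 and clone 2 replicate 1, 2 in WT replicate 2 and 1 in clone 4 replicate 2. At 2 h and 4 h it had 3 counts each, and at 8 h none in 8 libraries. Pooled levels were 0.0667 CPM at 0 h (exact Poisson 95% interval 0.0305 to 0.127), 0.0533 at 2 h (0.0110 to 0.156) and 0.0496 at 4 h (0.0102 to 0.145), and 0 counts at 8 h allow up to 0.0433 CPM. These intervals overlap, and a change over time was not detectable at this depth.

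Loss of CAPRIN1 was the study's main contrast. At 0 h the pooled KO libraries held 0.630 ± 0.163 CPM of Hist1h2al (SD, n = 3) against 0.621 ± 0.136 in WT (SD, n = 4), a log2 difference of -0.05 (SE 0.310, FDR 0.923). At 2 h the levels were 1.25 ± 0.549 CPM in KO and 1.55 ± 0.782 in WT (SD, n = 4 each), a log2 difference of -0.33 (SE 0.436, FDR 0.584). The groups overlapped at both times. Hist1h2al was the only histone gene past the filter at 0 h and 2 h, and none was past it at 4 h or 8 h. At 0 h and 2 h edgeR called 0 of 1, with 0 at an unadjusted p under 0.05, and DESeq2 called 0. The share of all tested genes that passed was 26.1%, 31.5%, 36.3% and 17.3% at 0, 2, 4 and 8 h.

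The other comparisons of KO with WT come from the fit without a filter, in which none passed, against 12.3%, 12.2%, 14.2% and 5.17% of all genes at 0, 2, 4 and 8 h. For Hist1h2bp the KO levels were 0.221 ± 0.0746 CPM at 0 h (SD, n = 3), 0.450 ± 0.161 at 2 h, 0.287 ± 0.127 at 4 h and 0.603 ± 0.196 at 8 h (SD, n = 4 each). WT stood at 0.331, 0.738, 0.453 and 0.489 CPM. The log2 differences were -0.49 (FDR 0.600), -0.66 (FDR 0.488), -0.72 (FDR 0.474) and 0.30 (FDR 0.752). KO means were thus below WT at 0, 2 and 4 h and above it at 8 h, within the spread between libraries. In the same fit Hist1h2al differed by -0.81 at 4 h (FDR 0.474) and by -0.57 at 8 h (FDR 0.588).

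Averaged over the 4 times, each clone was also set against WT. In clone 2 the log2 difference was -0.65 for Hist1h2bp (SE 0.301, FDR 0.0560) and -0.38 for Hist1h2al (SE 0.282, FDR 0.220). In clone 4 it was -0.19 for Hist1h2bp (SE 0.299, FDR 0.627) and -0.71 for Hist1h2al (SE 0.318, FDR 0.0533). With edgeR 0 of 2 genes passed in each clone, 1 in each had an unadjusted p under 0.05, and DESeq2 called 0. With library totals and with the replicate block 1 gene passed in each clone: Hist1h2bp in clone 2 (-0.80, FDR 0.0167, and -0.93, FDR 0.0161) and Hist1h2al in clone 4 (-0.78, FDR 0.0321, and -0.85, FDR 0.0361). Leaving out any of 6 single libraries also gave these calls, in each clone. In the same tests 73.6% of all genes passed for clone 2 and 57.9% for clone 4.

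**Figure D3:**
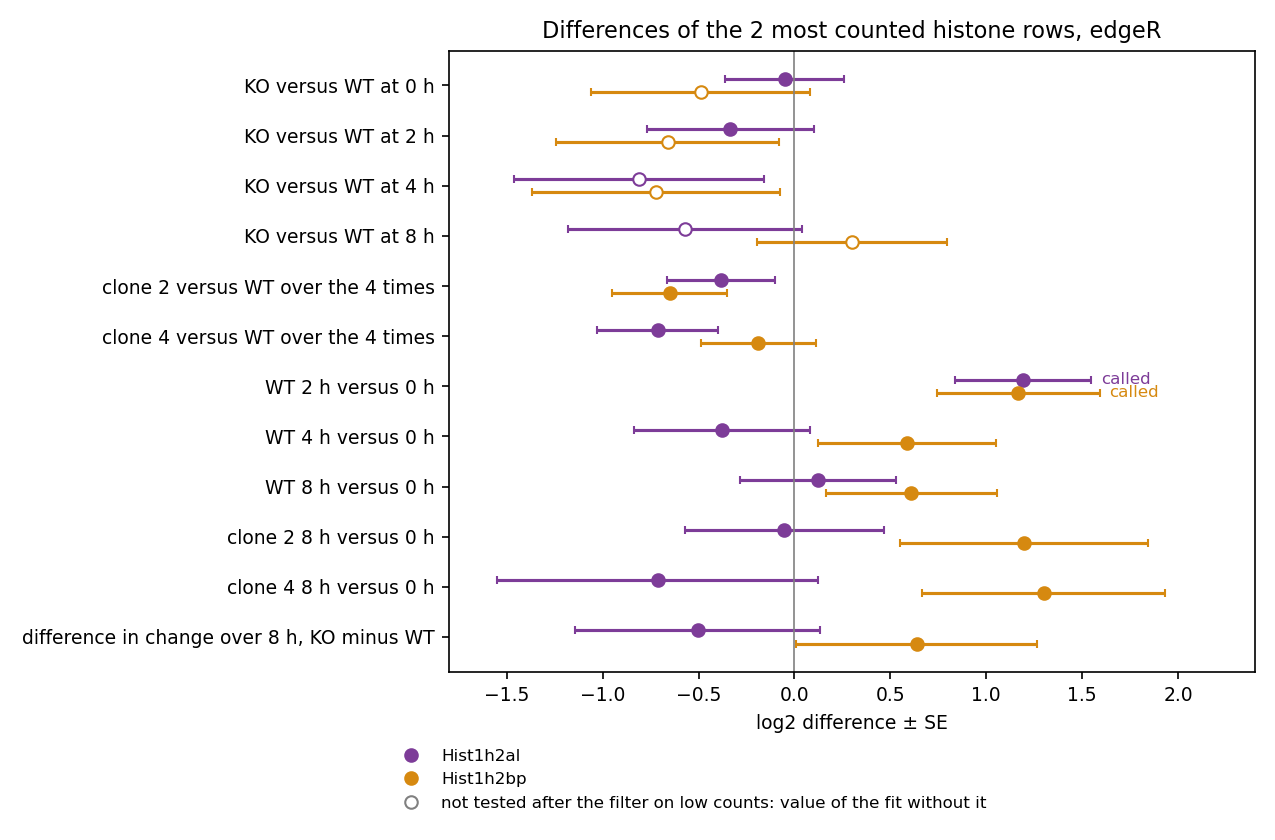
Log2 difference ± SE (horizontal axis) of Hist1h2al (purple) and Hist1h2bp (orange) in the 12 comparisons on the vertical axis, which leave out those added after the values were seen, with open points for values from the fit without a filter on low counts. Among these, only WT 2 h against 0 h passed, with 1.19 for Hist1h2al and 1.17 for Hist1h2bp.

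Factors that make, process and degrade replication-dependent histone mRNA were measured at far higher counts, and few of them passed between KO and WT at 0 h, where 26.1% of all genes did. The list for transcription and 3′ end processing holds 28 genes, of which 27 were found by the symbol listed and tested. Of these, 0 passed in either direction with edgeR (median log2 difference -0.012, against -0.002 over all genes). Slbp, the stem-loop binding protein, stood at -0.05 (SE 0.101, FDR 0.751) and Npat at 0.34 (SE 0.140, FDR 0.105). Of 21 genes of histone mRNA decay and export, 19 were tested, and only Lsm3, of the ring that recruits decapping, rose (0.38, FDR 0.0493). Of 26 histone chaperones, Dnajc9, which binds H3 and H4, fell (-0.50, FDR 0.0128) and 0 rose. With library totals in place of TMM, where the median of all genes shifts to -0.137, 5 processing genes and 3 chaperones passed downward at 0 h and no decay gene passed. Averaged over the 4 times, where 73.6% of all genes passed for clone 2 and 57.9% for clone 4, many more did. In clone 2, 10 processing genes were higher and 9 lower, 9 decay genes higher and 1 lower, and 7 chaperones higher and 10 lower. In clone 4, 3 processing genes were higher and 11 lower, 3 decay genes higher and 5 lower, and 4 chaperones higher and 15 lower. Library totals gave 3 and 16, 6 and 6, and 3 and 18 in clone 2, and 1 and 14, 1 and 7, and 1 and 18 in clone 4, in the same order.

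Histone synthesis is coupled to DNA replication, so S-phase genes were read beside the histone genes. At 0 h, where 26.1% of all genes passed in either direction, 3 of 42 S-phase genes rose in KO and 2 fell. Orc1, of the origin recognition complex, rose by 0.61 (FDR 0.0158), the kinase Cdk2 by 0.56 (FDR 0.0221) and cyclin Ccna2 by 0.44 (FDR 0.0245). The clamp loader genes Rfc3 and Rfc4 fell by 0.52 (FDR 0.00939) and 0.47 (FDR 0.0436). Of 20 mitosis genes, 0 rose and Kif20a alone fell (-0.34, FDR 0.0361). By library totals, 1 S-phase gene rose and 8 fell, and 6 mitosis genes fell. Averaged over the 4 times, 21 of 42 S-phase genes were higher and 13 lower in clone 2, against 5 higher and 25 lower in clone 4, with medians of 0.10 and -0.156; the lines were not tested against each other. In those comparisons 73.6% and 57.9% of all genes passed. Scaled by library totals, the clone 2 split turned to 13 higher and 20 lower, and clone 4 had 3 higher and 33 lower. Slbp was higher in clone 2 (0.20, SE 0.0328, FDR 1.94e-06) and lower in clone 4 (-0.15, SE 0.0362, FDR 0.000744).

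In WT at 2 h against 0 h, where the Hist1h2al and Hist1h2bp levels were higher, 4 of 27 processing genes rose and 4 fell, against 27.7% of all genes passing in either direction. Pou2f1, which encodes OCT1, rose by 0.28 (FDR 0.000379), and Zfp473, a zinc finger protein of the histone pre-mRNA cleavage machinery, fell by 0.91 (FDR 4.41e-10). Lsm10 and Lsm11, both parts of the U7 small nuclear ribonucleoprotein that cuts histone pre-mRNA, fell by 0.42 (FDR 0.0171) and 0.36 (FDR 0.00152). Slbp stood at 0.08 (FDR 0.272) and Npat at 0.10 (FDR 0.404). Of 19 decay genes 4 rose and 0 fell, of 26 chaperones 8 rose and 3 fell, of 42 S-phase genes 7 rose and 5 fell, and of 20 mitosis genes 2 rose and 1 fell. These counts shift with the scaling: by library totals, 1 processing gene rose and 9 fell, 1 decay gene rose and 2 fell, 2 chaperones rose and 4 fell, 3 S-phase genes rose and 10 fell, and 1 mitosis gene rose and 10 fell.

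At 8 h the S-phase list stood lower in WT, while the 2 tested histone genes did not pass. Of 42 S-phase genes 34 fell and 0 rose, with a median of -0.341 against 0.009 over all genes, and 25.4% of all genes passed downward. The fall was largest for Cdt1, which loads the replicative helicase (-1.07, from 99.1 ± 15.6 to 47.0 ± 2.04 CPM, SD, n = 4 each), followed by the thymidine kinase Tk1 (-0.97, FDR 2.61e-11) and the polymerase subunit Pold1 (-0.76, FDR 1.52e-08). Under library totals 36 fell and 0 rose. Slbp fell by 0.34 (FDR 4.30e-06), from 87.8 ± 4.72 to 69.9 ± 2.92 CPM (SD, n = 4 each), while Npat stood at -0.0031 (FDR 0.980). In the other lists, 2 of 27 processing genes rose and 9 fell, 6 of 19 decay genes rose and 3 fell, 6 of 26 chaperones rose and 7 fell, and 14 of 20 mitosis genes fell with none rising. The share of all genes that passed in either direction was 51.1%. Among the chaperones, Chaf1a and Chaf1b, subunits of the complex that deposits H3 and H4 at the replication fork, fell by 0.63 (FDR 6.50e-11) and 0.57 (FDR 1.39e-08).

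Replication-independent histone variants, whose mRNAs carry poly(A) tails, were far more abundant than the kept cluster genes. Of 14 such genes listed, 4 were found in the tables by the symbol listed, and other names were not searched. In WT at 0 h H3f3b (histone H3.3) stood at 731.5 ± 41.5 CPM and H1f0 (linker histone H1.0) at 244.9 ± 25.9 (SD, n = 4 each). H3f3a (H3.3) stood at 81.9 ± 8.66 CPM and Cenpa (centromeric H3) at 80.4 ± 6.20 (SD, n = 4 each). At 2 h H3f3b and H3f3a rose as a share of the RNA, by 0.36 (SE 0.0527, FDR 2.10e-06) and 0.24 (SE 0.0899, FDR 0.0447), and H1f0 fell by 0.43 (SE 0.0671, FDR 4.53e-06). In this comparison 27.7% of all genes passed in either direction. By library totals, 1 of the 4 rose and 1 fell. By 8 h H1f0 had fallen by 0.95 (FDR 1.52e-13) and Cenpa by 0.35 (FDR 6.40e-05), and H3f3b stood at 0.03 (FDR 0.614). None of the 4 passed between KO and WT at 0 h, while over the 4 times H1f0 was higher in clone 2 (0.49, FDR 2.92e-13) and stood at -0.09 in clone 4 (FDR 0.0909).

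The study also immunoprecipitated CAPRIN1 and sequenced the bound RNA. In the authors' deposited table of gene symbols for the comparison named 2I vs RA, 3 of 2502 symbols have the histone form: Hist1h2af, Hist1h2bl and Hist1h3d. In the authors' deposited table for CNT vs RA, 0 of 2170 do. These 3 symbols are not among the 9 in the count tables. Binding and RNA level could therefore not be set side by side for any gene under a symbol of this form. Histone genes under other names were not compared here. The lists give no values or direction.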

How the data were processed

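RNA-seq of 31 libraries was analysed from 4 deposited tables, 1 per time, of raw read counts per gene with gene length in bases, per the file headers. A further pair of deposited files holds the authors' lists of gene symbols from CAPRIN1 immunoprecipitation. The submitters' processing notes name, without their roles, STAR 2.4.0.1, FastQC 0.11.9, TopHat, Cuffdiff, Cufflinks and DESeq2, and the builds mm10 and GRCm38. How reads were counted (program, strand, multiple matches, annotation) is not given in the sources used here. Of the lines in each table, 110 repeat an identifier with the same counts and were dropped, leaving 51410 genes. Of 41 samples, the 9 immunoprecipitation samples entered only as lists, and clone 4 replicate 1 at 0 h was not analysed here.

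Tests on the counts used edgeR 4.0.16 under R 4.3.3 (TMM, filterByExpr at a minimum count of 10 and a minimum total of 15, robust quasi-likelihood fit and F test), with Benjamini-Hochberg adjustment over all genes tested and a threshold of 0.05. KO and WT were compared within each time with the clones pooled. Clone and time comparisons came from 1 joint fit of 12 groups (19 residual degrees of freedom). SE is the log2 difference divided by the square root of F. DESeq2 1.42.0, other scalings, no filter, fewer libraries and a replicate block were alternatives. Scripts were tested on simulated data. No pair of replicates agreed within counting noise. Over 31 pairs, the chi-square per gene ran from 1.62 to 41.4. In WT at 0 h it was 3.62 between replicates 1 and 2 and 2.86 between 3 and 4. Across these subsets it was 18.7 to 41.4. At 8 h the values were 1.93 and 2.34, against 6.88 to 10.8 across. At 2 h and 4 h the closest WT pair was replicates 2 and 3 (2.21 and 1.73). KO libraries are numbered 1 and 2 only. The comparisons with WT were also run with WT replicates 1 and 2 only and with 3 and 4 only, as given at the end. What gave rise to the split was not tested. Replicate numbers did not pair samples: deviations of same-numbered libraries correlated at -0.034 to 0.180 across times in WT and at -0.082 to 0.038 between genotypes.

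The members and the gene lists (histone mRNA processing, decay, variants, chaperones, S phase, mitosis, and markers of pluripotency, retinoic acid differentiation, endoderm and feeder fibroblasts) were chosen with earlier results of these data known. All 3 members are named; of the lists, Slbp, Npat and up to 3 called genes per direction at a mean of at least 1 CPM, and other named list genes were chosen after their values were seen. The 17 retinoic acid markers summed to 632 to 1670 CPM in WT, 495 to 1410 in clone 2 and 551 to 1310 in clone 4. Promoter sequences and positions are RefSeq's, of GRCm38.p6; intervals and 0 limits (3 counts) cover counting error only.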

Additional observations from a re-analysis of the deposited data

Results flagged for a closer look

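Of 18 groups of 4 libraries (4 WT or 4 KO of 1 time, by gene) examined for a library far from the others, 3 held one. The cutoff flags about 1 group in 20 in normally distributed data, and whether that rate holds for counts this low was not tested. A lone library with counts beside libraries at 0 always meets the cutoff. WT replicate 1 at 2 h held 0.149 CPM of Hist1h4n, which is 1 count where the other 3 libraries had 0. WT replicate 2 at 4 h held 0.279 CPM of Hist1h2bp, below the other 3. Clone 2 replicate 2 at 8 h held 1.00 CPM of Hist1h2al, above the other 3 KO libraries.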

How the results depend on the processing

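Among the 12 comparisons in the plot of log2 differences, the count of histone genes that passed was 2 in WT at 2 h against 0 h and 0 in the others. The 6 comparisons added after the values were seen are not counted here; of these, 4 h against 2 h was repeated without the filter, and none was repeated with libraries left out. For WT at 2 h it was 1 with DESeq2, with library totals, with no filter on low counts, with the replicate block and with WT replicates 1 and 2 only. It was 0 with WT replicates 3 and 4 only and with 8 groups in which the clones were pooled, and 1 to 2 when each library was left out in turn. For clone 2 over the 4 times it was 1 with library totals, the replicate block and WT replicates 1 and 2 only, and 0 to 1 with each library left out. For clone 4 it was 1 with library totals and with the replicate block, and 0 to 1 with each library left out. In the 9 other comparisons it was 0 under each alternative run and with each library left out.

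Of the calls in WT at 2 h, Hist1h2al was lost with WT replicates 3 and 4 only (0.55, FDR 0.517) and with the clones pooled (1.22, FDR 0.0620). Hist1h2bp was lost with DESeq2 (1.23, FDR 0.132), library totals (1.06, FDR 0.0526) and the replicate block (1.12, FDR 0.0518). The same held with no filter on low counts (1.12, FDR 0.168) and with WT replicates 1 and 2 only (1.11, FDR 0.154). Nor was Hist1h2bp called with WT replicates 3 and 4 only or with the clones pooled. In clone 2, Hist1h2bp passed with library totals (-0.80, FDR 0.0167), the block (-0.93, FDR 0.0161) and WT replicates 1 and 2 only (-0.86, FDR 0.0406). It also passed without WT replicate 4 at 0 h, clone 2 replicate 2 at 2 h, WT replicate 2 or 4 at 2 h, WT replicate 2 at 4 h or WT replicate 3 at 8 h (-0.77 to -0.56 over all libraries left out). In clone 4, Hist1h2al passed with library totals (-0.78, FDR 0.0321) and the block (-0.85, FDR 0.0361). It also passed without WT replicate 4 at 0 h, WT replicate 3 or 4 at 2 h, WT replicate 2 at 4 h or WT replicate 1 or 4 at 8 h (-0.79 to -0.61). The cause was not tested.

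Hist1h2al turned direction, without passing, in KO against WT at 2 h with WT replicates 3 and 4 only (0.28, FDR 0.757) and in WT at 8 h with WT replicates 1 and 2 only (-0.047, FDR 0.959). With libraries left out, it spanned -0.26 to 0.11 in KO against WT at 0 h, -0.60 to 0.065 at 2 h, -0.15 to 0.44 in WT over 8 h and -1.01 to 0.45 in clone 2 over 8 h. Library totals moved the median log2 difference of all genes from -0.014 to -0.117 in WT at 2 h and from -0.003 to -0.157 in clone 2. Without the lone clone 4 library at 0 h, its change over 8 h has no value. Fitting 3 groups within each table was not run. With 1 to 24 counts per library, depth limits every value here.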
